A study of Saccharomyces cerevisiae with 12 samples.

Results

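The genes described here make the branched-chain amino acids leucine, isoleucine and valine in the budding yeast Saccharomyces cerevisiae. They were chosen by name: LEU1, LEU2, LEU4, LEU9, ILV1, ILV2, ILV3, ILV5, ILV6 and BAT1. Each of these 10 genes had 1 probe set that names it and no other gene, out of 5449 S. cerevisiae genes with such a probe set, and all 10 were among the 5352 genes tested. None needed its signal in a single group to pass the filter on dim genes, since the lowest of their signals was 26.2 times the background of its array.

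Transcript levels came from 12 one-colour Affymetrix arrays, 1 for each culture. There were 8 homozygotes derived from an evolved strain, with 1 culture per strain, then the evolved strain in 2 biological replicates and its parental strain in 2 biological replicates. All groups, the parental one included, grew in YPX, a rich medium here with 4% xylose, from a starting optical density of 0.1, at 35 °C and 200 rpm for 25 h. The labels name no allele, ploidy or selection for any strain, so each group is defined by its strain name only.

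Leucine, valine and isoleucine share a set of mitochondrial enzymes that join and rearrange 2-oxo acids made from pyruvate and threonine. Leucine then takes a branch of its own, in which isopropylmalate is made in the mitochondria, leaves them, and is isomerised and oxidised in the cytosol. In yeast the transcription factor Leu3 binds isopropylmalate and then activates several genes of the pathway, so the intermediate acts as the signal. Gcn4, the general activator of amino acid synthesis genes, acts on many of the same genes.

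The parental duplicates were far apart, with a median absolute log2 difference of 0.222 over all tested genes, against 0.0583 for the evolved duplicates and 0.0799 to 0.176 for pairs of homozygotes. The evolved arrays were closer to each other than any pair of homozygotes. The 16 rRNA control probe sets averaged 11.68 ± 0.121 (SD, n = 8) on the log2 scale in homozygotes, 11.62 ± 0.0406 (SD, n = 2) in evolved arrays and 12.03 ± 0.0189 (SD, n = 2) in parental arrays. The part of this gap in the results was not tested. Of 15 tested haploid-specific and mating genes, markers of the other cell state that a yeast culture can hold, 2 were called higher and 2 lower in homozygotes than in parental arrays, where 31.2% of all tested genes were called in either direction.

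Homozygotes were first set against the parental strain. The genes of the cytosolic steps of the leucine branch and of the mitochondrial transaminase were higher in homozygotes: LEU1 by 2.41-fold, LEU2 by 1.88-fold and BAT1 by 1.43-fold. LEU9, the minor isopropylmalate synthase gene at the head of the branch, was 1.38-fold lower. ILV3 and ILV5 were also called higher, by 1.28-fold and 1.12-fold, and both calls were lost without parental array 1. ILV1, ILV2, ILV6 and LEU4 were not past the threshold. In all, limma called 5 of the 10 genes higher and 1 lower at an adjusted p under 0.05, where the background was 13.2% of all tested genes called higher and 18% called lower (31.2% in either direction). The median log2 change was 0.15 over the 10 genes and -0.04 over all tested genes. Since each array reads a whole culture, fewer cells with a transcript and less of it per cell cannot be told apart.

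**Figure D1:**
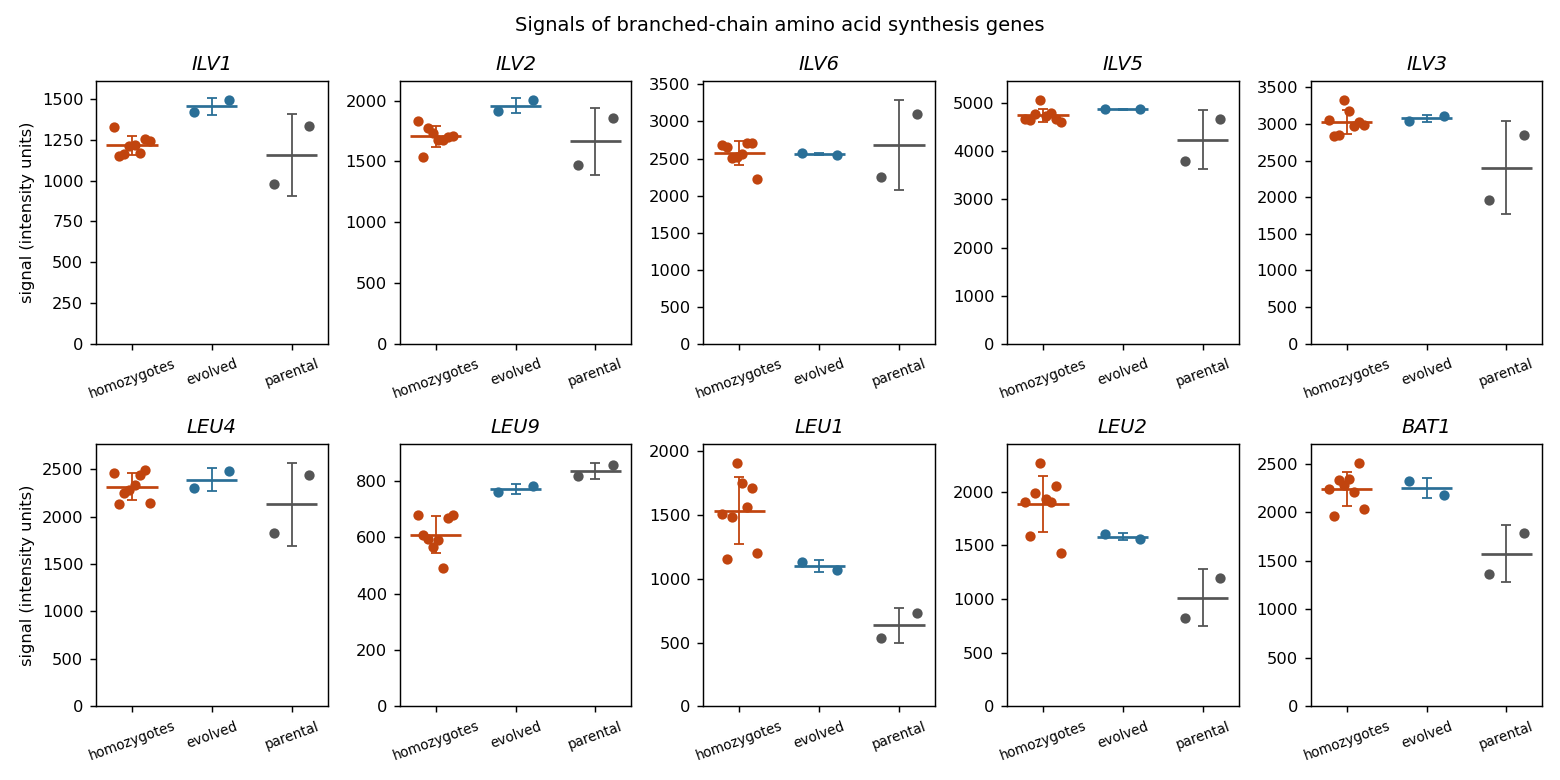
Signal in intensity units (linear, from 0) of each of the 10 genes on every array, with homozygotes (n = 8), evolved arrays (n = 2) and parental arrays (n = 2) from left to right. Points are arrays, horizontal lines are means and error bars are SDs. All 8 homozygotes lie above both parental arrays for LEU1, LEU2 and BAT1 and below both for LEU9.

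The leucine branch opens with 2 isopropylmalate synthases, which condense 2-oxoisovalerate with acetyl-CoA. LEU4 encodes the main one. Its signals ran from 2131 through a median of 2308 to 2491 in homozygotes, against 1822 and 2436 in the parental arrays. The homozygotes thus lay within or just above the parental range. The log2 change of LEU4 was 0.13 ± 0.09 (SE), with an adjusted p = 0.29 and a 95% interval from -0.07 to 0.34.

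LEU9 encodes the second synthase, a close paralog of LEU4. The 2 probe sets are each marked as specific to their gene. LEU9 signals ran from 491 through a median of 601 to 681 in homozygotes, against 817 and 855 in the parental arrays. The groups did not overlap, in a direction in which 18.7% of all tested genes were also separated (31.2% in either direction). LEU9 fell by 0.46 on the log2 scale (SE 0.11, adjusted p = 0.00674). Its parental arrays differed by only 0.07, the smallest gap among the 10 genes, and the change was -0.43 against parental array 1 alone and -0.50 against parental array 2 alone. The difference between the changes of LEU9 and LEU4 was not tested.

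LEU1 encodes isopropylmalate isomerase, a cytosolic enzyme with an iron-sulfur cluster, and it changed most. Signals ran from 1157 through a median of 1534 to 1907 in homozygotes, against 540 and 732 in the parental arrays. Every homozygote was at least 0.88 above the parental mean on the log2 scale. LEU1 rose by 1.27 ± 0.17 (SE) on the log2 scale, with an adjusted p = 0.000151, and by absolute size this ranked 65 of 5352 genes.

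LEU2 encodes isopropylmalate dehydrogenase, the next cytosolic enzyme. Signals ran from 1432 through a median of 1920 to 2266 in homozygotes, against 824 and 1199 in the parental arrays. All 8 strains lay above both parental cultures, as for LEU1, in a direction in which 12.5% of all tested genes were also separated. LEU2 rose by 0.91 ± 0.15 (SE) on the log2 scale, with an adjusted p = 0.000910.

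BAT1 encodes the mitochondrial branched-chain aminotransferase, which makes the last step to each of the 3 amino acids. Signals ran from 1961 through a median of 2259 to 2505 in homozygotes, against 1366 and 1783 in the parental arrays. Again no homozygote reached down to the parental range. BAT1 rose by 0.52 ± 0.10 (SE) on the log2 scale, with an adjusted p = 0.00203. With array weights, which give the parental arrays a weight of 0.293, BAT1 and LEU9 missed the threshold (adjusted p = 0.0566 and 0.154), as did ILV3 and ILV5, while LEU1 and LEU2 stayed past it.

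ILV3, ILV5, ILV2 and ILV6, whose enzymes are shared by valine, isoleucine and leucine, had smaller log2 changes than LEU1, LEU2 and BAT1. This difference was not tested. ILV3 encodes dihydroxyacid dehydratase, another iron-sulfur enzyme. Its signals ran from 2838 through a median of 3003 to 3319 in homozygotes, against 1956 and 2849 in the parental arrays. Parental array 2 stood at the low end of the homozygotes and parental array 1 far below them. ILV3 rose by 0.36 ± 0.10 (SE, adjusted p = 0.0172) on the log2 scale, and was at 0.09 (adjusted p = 0.443) without parental array 1.

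ILV5 encodes acetohydroxyacid reductoisomerase, which also helps to keep mitochondrial DNA stable. Its signals ran from 4619 through a median of 4714 to 5058 in homozygotes, against 3810 and 4675 in the parental arrays. It had the narrowest spread of the 10 genes among homozygotes, a log2 SD of 0.04. ILV5 rose by 0.17 ± 0.06 (SE, adjusted p = 0.0450) on the log2 scale, and was at 0.02 (adjusted p = 0.800) without parental array 1. This call passed the threshold in 8 of 25 alternative settings.

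ILV2 encodes the catalytic subunit of acetolactate synthase, which joins 2 oxo acids in the first shared step, and ILV6 encodes the subunit that makes the enzyme sensitive to valine. ILV2 signals ran from 1540 through a median of 1705 to 1835 in homozygotes, against 1469 and 1862 in the parental arrays. ILV6 signals ran from 2228 through a median of 2614 to 2716 in homozygotes, against 2254 and 3107 in the parental arrays. For both subunits the homozygotes lay between the parental cultures, with the exception of homozygote 8 for ILV6. On the log2 scale the change was 0.04 ± 0.08 (SE) for ILV2, with a 95% interval from -0.13 to 0.22, and -0.04 ± 0.10 (SE) for ILV6, with an interval from -0.25 to 0.17. The adjusted p was 0.712 for ILV2 and 0.772 for ILV6. Without parental array 1, ILV6 was called lower (-0.27, adjusted p = 0.0411).

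ILV1 encodes threonine deaminase, the entry to isoleucine. Its signals ran from 1148 through a median of 1215 to 1328 in homozygotes, against 979 and 1335 in the parental arrays. All 8 homozygotes lay between the parental cultures. ILV1 had a log2 change of 0.09 ± 0.10 (SE, adjusted p = 0.511), with a 95% interval from -0.12 to 0.29. Without parental array 2, ILV1 (0.31, adjusted p = 0.0171) and LEU4 (0.34, adjusted p = 0.0128) were called higher.

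**Figure D2:**
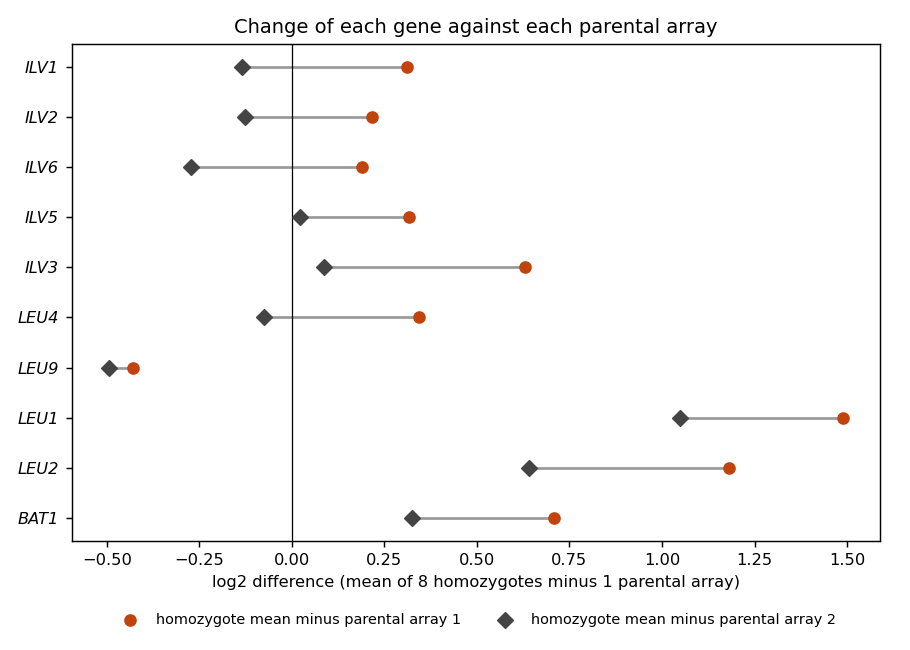
Log2 difference between the mean of the 8 homozygotes and each parental array taken alone (circles, parental array 1; diamonds, parental array 2), for each of the 10 genes. LEU1, LEU2, BAT1 and LEU9 keep their direction and a distance of at least 0.32 from 0 against both arrays, while ILV1, ILV2, ILV6 and LEU4 lie on opposite sides of 0.

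The parental cultures differed from each other across the whole pathway. Parental array 2 was higher than parental array 1 for 10 of the 10 genes, and for 9 of them by at least 0.29 on the log2 scale. Over all tested genes parental array 2 was higher in 48.5%, and higher by at least 0.29 in 18%. The gap was largest for ILV3 and LEU2, at 0.54 each, and smallest for LEU9. Lists of other amino acid synthesis genes showed the same side: 6 of 9 lysine genes, 4 of 7 arginine genes and 4 of 7 histidine genes were higher by at least 0.29 in parental array 2. This count was made after the values were seen and carries no test. With 2 parental cultures, the log2 changes above rest on a midpoint between a lower and a higher culture.

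The evolved strain was then set against the parental strain. LEU1, LEU2 and BAT1 were called higher there too, and no gene of the 10 was called lower. The background was 3.2% of all tested genes called higher and 5.21% called lower (8.41% in either direction). The parental arrays are the same as in the first comparison, so the comparisons are not independent.

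LEU1 was at 1136 and 1068 in the evolved arrays, against 540 and 732 in the parental arrays. LEU2 was at 1606 and 1556 in the evolved arrays, against 824 and 1199 in the parental arrays. BAT1 was at 2326 and 2174 in the evolved arrays, against 1366 and 1783 in the parental arrays. For each of these 3 genes both evolved arrays lay above both parental arrays, as was the case for 23.8% of all tested genes.

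The log2 change was 0.81 ± 0.21 (SE, adjusted p = 0.0330) for LEU1 and 0.53 ± 0.13 (SE, adjusted p = 0.0204) for BAT1. For LEU2 it was 0.67 ± 0.19 (SE, adjusted p = 0.0498), at the edge of the threshold, which it passed in 4 of 25 alternative settings. These 3 calls were all lost without parental array 1, without either evolved array, or with the evolved arrays counted as 1 (0 of 10 genes called in each case). Of all 5352 genes, 563 were called without parental array 1, 118 and 153 without evolved array 1 or 2, and 133 with the evolved arrays counted as 1. Without parental array 2, 8 of the 10 genes and 863 of all genes were called, against 450 of all genes with every array.

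ILV3 was at 3045 and 3113 in the evolved arrays, against 1956 and 2849 in the parental arrays (log2 change 0.38 ± 0.13 SE, adjusted p = 0.0815). ILV1, at 1419 and 1491 in evolved arrays against 979 and 1335 in parental arrays, had a log2 change of 0.35 ± 0.12 (SE, adjusted p = 0.0946). ILV2 and ILV5 had log2 changes of 0.25 and 0.21 with adjusted p = 0.169 and 0.103. All 4 of these genes were above both parental arrays in both evolved cultures, as was the case for 23.8% of all tested genes. LEU4, ILV6 and LEU9 had log2 changes of 0.18, -0.05 and -0.12 in the evolved strain, with adjusted p from 0.383 to 0.851. LEU9 was at 759 and 783 in evolved arrays against 817 and 855 in parental arrays, with both evolved arrays below both parental arrays, as for 28% of all tested genes. Its 95% interval ran from -0.41 to 0.18.

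**Figure D3:**
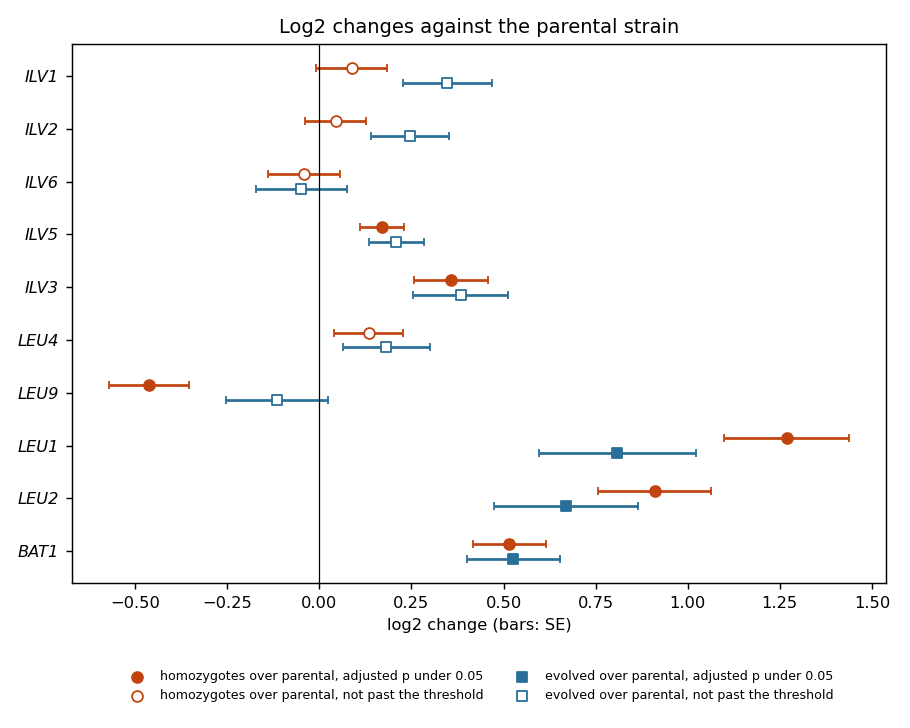
Log2 change with its SE (horizontal bars) for each of the 10 genes, homozygotes over parental arrays (circles) and evolved over parental arrays (squares). Filled symbols passed an adjusted p of 0.05. LEU1, LEU2 and BAT1 are filled in both comparisons, and LEU9, ILV3 and ILV5 in that of the homozygotes alone.

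Last, the homozygotes were set against the evolved strain they came from. limma called none of the 10 genes, and 0 of all 5352 genes, so the background was 0%. At an unadjusted p under 0.05 there were 4 of the 10 genes and 929 of all tested genes. Those 4 were LEU1, LEU9, ILV1 and ILV2. With array weights per group, where the near-identical evolved arrays received a weight of 3.69, 5 of the 10 genes and 1549 of all tested genes were called.

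All 8 homozygotes were above both evolved arrays for LEU1, with a log2 change of 0.46 ± 0.17 (SE, adjusted p = 0.210). All 8 were below both evolved arrays for LEU9 (-0.35 ± 0.11 SE, adjusted p = 0.179), ILV1 (-0.26 ± 0.10 SE, adjusted p = 0.210) and ILV2 (-0.20 ± 0.08 SE, adjusted p = 0.244). Such separation was seen for 9.25% of all tested genes with homozygotes higher and for 12.8% with homozygotes lower. For BAT1, ILV3 and ILV6 the log2 changes were -0.01, -0.03 and 0.01, with 95% intervals within 0.25 of 0 on either side. The values therefore do not show that LEU1 or LEU9 differ between homozygotes and the evolved strain, nor that they are alike.

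Among themselves, the 8 homozygotes differed most in LEU1 and LEU2. The highest LEU1 signal was 1.65 times the lowest, and the highest LEU2 signal 1.58 times the lowest. For ILV5 this ratio was 1.10. The log2 SD was 0.25 for LEU1 and 0.21 for LEU2, against a median of 0.12 over all tested genes. None of the 10 genes passed the F test of spread among homozygotes against spread between duplicates, at an adjusted p or at an unadjusted p under 0.05 (120 of 5352 genes did at the unadjusted level), where the wide parental duplicates set much of the yardstick. Spread here mixes differences between strains and between cultures, since each strain had 1 culture.

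The same strains were low for several genes. Homozygotes 2 and 8 had the lowest LEU1, LEU2, LEU4 and BAT1 signals. Homozygote 4 was highest for LEU1, LEU2, ILV3 and ILV5, and homozygote 7 for LEU4 and BAT1. LEU1 and LEU2 had a Pearson r of 0.92 over the 8 homozygotes, and LEU1 and BAT1 one of 0.84. These r values are descriptions over 8 arrays, on which any difference in scale or growth is shared by all genes. LEU9 followed another order, with homozygote 6 lowest at 491 and homozygote 1 highest at 681.

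**Figure D4:**
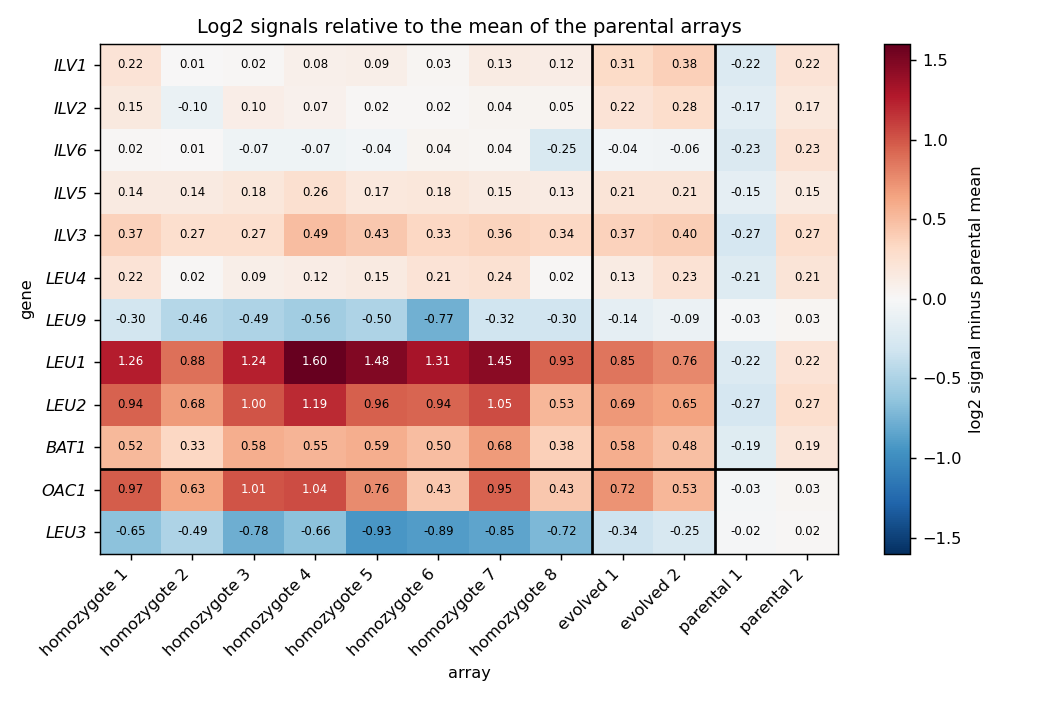
Log2 signal minus the mean of the parental arrays for the 10 genes, OAC1 and LEU3 (rows) on each array (columns, homozygotes 1 to 8, evolved 1 and 2, parental 1 and 2), with the value printed in each cell. LEU1, LEU2, BAT1, OAC1, LEU4, ILV1, ILV3 and ILV5 are positive on all homozygote and evolved arrays, with values down to 0.01 for ILV1, and LEU9 and LEU3 are negative on all of them.

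Of 8 regulators, 2 rose and 1 fell in homozygotes, and 5 did not pass the test. The share called in either direction over all tested genes was 31.2%. The fall was that of LEU3 itself, the gene of the pathway's own activator. LEU3 signals ran from 131 through a median of 149 to 178 in homozygotes, against 248 and 253 in the parental arrays. The evolved arrays were in between, at 198 and 211. LEU3 fell by 0.74 on the log2 scale in homozygotes (SE 0.11, adjusted p = 0.000245), and was at -0.29 ± 0.13 (SE, adjusted p = 0.199) in the evolved strain.

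GCN4 was 0.19 ± 0.04 (SE, adjusted p = 0.00315) higher on the log2 scale in homozygotes and 0.19 ± 0.05 (SE, adjusted p = 0.0286) higher in the evolved strain. Without parental array 1 neither call held (homozygotes 0.11, adjusted p = 0.0568). GCN4 is controlled mainly through translation, which arrays do not measure. STP2, a factor of the amino acid sensing pathway that induces permease genes, rose by 0.43 ± 0.08 (SE, adjusted p = 0.00204) in homozygotes. It was at 0.40 ± 0.11 (SE, adjusted p = 0.0339) in the evolved strain. That evolved call passed the threshold in 18 of 25 alternative settings, and was lost with array weights (adjusted p = 0.160). GCN2, GLN3, RTG1, RTG3 and STP1 had log2 changes from 0.01 to 0.26 and did not pass the test.

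OAC1 encodes a mitochondrial carrier that exchanges oxaloacetate and exports isopropylmalate to the cytosol, and it is a known target of Leu3. Its signals ran from 656 through a median of 884 to 1004 in homozygotes, against 479 and 497 in the parental arrays. The evolved arrays were at 806 and 702. OAC1 rose by 0.78 ± 0.16 (SE, adjusted p = 0.00301) in homozygotes, and was at 0.62 ± 0.20 (SE, adjusted p = 0.0728) in the evolved strain. Its parental arrays lay close together, so the change was 0.80 against parental array 1 and 0.75 against parental array 2. It missed the threshold with array weights (adjusted p = 0.119), as did GCN4, STP2, MPC2, BAP2, TAT1 and GNP1, while LEU3 stayed past it.

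The mitochondrial pyruvate carrier supplies the substrate of acetolactate synthase. Of its genes, MPC2 rose by 0.29 ± 0.07 (SE, adjusted p = 0.00712) in homozygotes, and MPC1 and MPC3 were at -0.12 and -0.10. MPC2 missed the threshold without parental array 2 (0.21, adjusted p = 0.0859).

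Of 8 genes for permeases that take up branched-chain and other amino acids and for their sensor, 1 rose and 2 fell in homozygotes. Over all tested genes 31.2% were called in either direction. The rise was that of BAP2, the main branched-chain permease gene, at 0.42 ± 0.15 (SE, adjusted p = 0.0486). Without parental array 1 the BAP2 change was 0.03. The BAP2 call passed the threshold in 8 of 25 alternative settings. TAT1, a permease for valine, leucine, tyrosine and tryptophan, fell by 0.43 (SE 0.08, adjusted p = 0.00199), and the glutamine permease gene GNP1 fell by 0.24 (SE 0.06, adjusted p = 0.0103). GNP1 missed the threshold without parental array 1 (-0.21, adjusted p = 0.0618). In the evolved strain limma called 0 of the 8 (8.41% of all tested genes), and 0 had an unadjusted p under 0.05 (1281 of 5352 genes).

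**Figure D5:**
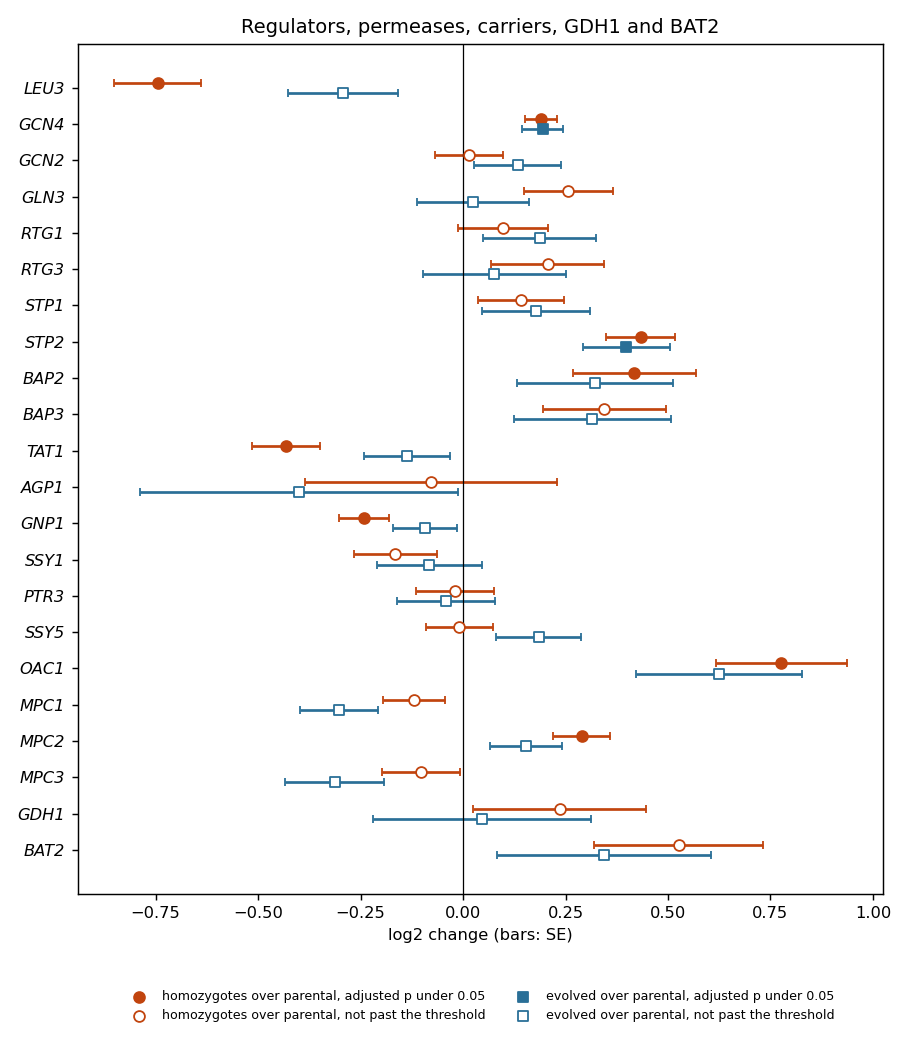
Log2 change with its SE (horizontal bars) for the listed regulators, permease and sensor genes and mitochondrial carriers, and for GDH1 and BAT2, homozygotes over parental arrays (circles) and evolved over parental arrays (squares). Filled symbols passed an adjusted p of 0.05. LEU3 lies farthest below 0 and OAC1 farthest above 0 in homozygotes.

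Branched-chain amino acids are broken down to fusel alcohols through a cytosolic transaminase, a decarboxylase and an alcohol dehydrogenase. A list of 12 genes covered these steps and also held ARO80, ATF1, ATF2 and IAH1. Of these 12 genes, 2 rose and 1 fell in homozygotes, where 31.2% of all tested genes were called in either direction. PDC6, a minor pyruvate decarboxylase gene, rose by 1.53 ± 0.11 (SE, adjusted p = 2.1e-06), with a mean signal of 232 ± 23.0 (SD, n = 8) in homozygotes against 79.9 ± 9.02 (SD, n = 2) in parental arrays. In the evolved strain PDC6 was the 1 gene of the 12 called higher (1.49 ± 0.15 SE, adjusted p = 5.9e-05). SFA1 was the 1 called lower there (-0.31 ± 0.08 SE, adjusted p = 0.0330), where 8.41% of all tested genes were called in either direction. The SFA1 call in the evolved strain passed the threshold in 16 of 25 alternative settings. PDC5 rose by 0.46 ± 0.14 (SE, adjusted p = 0.0231), and missed the threshold without parental array 2 (0.28, adjusted p = 0.244). SFA1, an alcohol dehydrogenase gene, fell by 0.23 (SE 0.07, adjusted p = 0.0171), and missed the threshold without parental array 1 (-0.21, adjusted p = 0.0939) and after median centring (adjusted p = 0.0554).

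BAT2, the cytosolic paralog of BAT1, and GDH1, a glutamate dehydrogenase gene that Leu3 also controls, were named after their values were seen. BAT2 averaged 1335 ± 141 (SD, n = 8) in homozygotes and 999 ± 542 (SD, n = 2) in parental arrays (log2 change 0.53 ± 0.21 SE, adjusted p = 0.0668). This change was as large as that of BAT1, but the parental cultures of BAT2 were at 1383 in array 2 and 616 in array 1. GDH1 was at 0.24 ± 0.21 (SE, adjusted p = 0.415).

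Upstream, isoleucine draws on threonine. The 7 genes listed around threonine were HOM2, HOM3, HOM6, THR1, THR4, CHA1 and MMF1. HOM6, homoserine dehydrogenase, rose by 0.19 ± 0.04 (SE, adjusted p = 0.00453) in homozygotes, and missed the threshold with array weights (adjusted p = 0.116). HOM3, aspartate kinase, fell by 0.40 (SE 0.12, adjusted p = 0.0240), a call lost without either parental array (adjusted p = 0.0556 and 0.122). The other 5 did not pass the test, where 31.2% of all tested genes were called in either direction. Of the 4 genes listed for pantothenate, which draws on the valine precursor, 0 passed the limma test in homozygotes. At an unadjusted p under 0.05 there were 2 of the 4, and 2283 of all 5352 genes.

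Other amino acid pathways under Gcn4 gave other counts in homozygotes against parental arrays. Over all tested genes 13.2% were called higher and 18% lower there. Of 9 tested lysine genes 0 rose and 5 fell (median log2 change -0.55), led by LYS9 at -1.69 ± 0.15 (SE). Of 7 tested arginine genes 4 rose and 2 fell (median 0.35), led by ARG3 at 1.86 ± 0.25 (SE). Of 7 histidine genes 1 rose and 2 fell (median -0.11). The difference between these lists and the branched-chain genes was not tested.

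For each gene, the non-member genes with the most similar profile over the 12 arrays were taken by Pearson r, as a description. For LEU1 these were MUP1, a methionine permease gene (r = 0.97), and SUL2, a sulfate permease gene (r = 0.97). For LEU2 they were SNZ3 and SNO3 (r = 0.98 and 0.97), both read by probe sets that can also detect relatives. For BAT1 they were ARG1 (r = 0.96) and MET5 (r = 0.95). LEU9 was most like ELO3, a fatty acid elongase gene (r = 0.97), and CPR8 (r = 0.96). LEU4 was most like HOM2 (r = 0.93) and UBA4 (r = 0.90), and ILV1 like RNR2 (r = 0.93) and THR4 (r = 0.90). For ILV2 the nearest were SKS1 (r = 0.91) and RNR2 (r = 0.87), and for ILV3 PDB1 and ADE12 (r = 0.94 each). ILV5 was most like ARO3 (r = 0.96) and PDA1 (r = 0.94), and ILV6 like ARO1 (r = 0.97) and TRR2 (r = 0.94). All of these r values share the 12 arrays and the gap between the parental cultures.

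The 10 genes lie on 9 chromosomes by their R64 gene names, and LEU2 and ILV6 share chromosome III. The median log2 change in homozygotes over all tested genes of these chromosomes ran from -0.07 on chromosome XV to 0.02 on chromosome III. These medians were smaller in absolute size than the changes of LEU1, LEU2, BAT1 and LEU9. The part of whole chromosomes in those changes was not tested. Beside LEU9 both tested neighbours, RGS2 (-1.32, adjusted p = 8.8e-05) and INP53 (-0.40, adjusted p = 0.0140), were also lower in homozygotes. Beside BAT1, CRG1 was 0.53 higher (adjusted p = 0.00366), about as much as BAT1 itself, and SET5 was at -0.02. Beside LEU2, YCL021W-A was 0.64 higher (adjusted p = 0.0344) and NFS1 was at 0.10. Beside LEU1, PMA1 was 0.41 higher (adjusted p = 0.000378) and MPO1 was at 0.34 (adjusted p = 0.186). Called neighbours also lay beside LEU4 (MET4, 0.24, adjusted p = 0.0406) and ILV2 (MYO5, -0.38, adjusted p = 0.0203). The same held beside ILV3 (TES1, -0.28, adjusted p = 0.013) and ILV5 (TAL1, 0.28, adjusted p = 7.8e-05). No tested neighbour of ILV1 or ILV6 was called. Over all tested genes 13.2% were called higher and 18% lower. Neighbours were looked up after the members' values were known.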

How the data were processed

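The files hold deposited intensity values that are linear and run from 4.05 to 12088. The tool named is MAS5, per the submitters' processing notes, with no version or role. The target was biotin-labelled cRNA from 100 ng of total RNA, per the labels' protocols. How arrays were scaled is not given in those sources. The 2% trimmed means ran from 448.9 to 454.9. Signals were log2 transformed without further normalization. Probe sets were named from the platform annotation through the R64 gene table. For 47 genes with several probe sets a gene-specific one was preferred, then the brightest. Background was the 90th percentile of 1746 probe sets for fission yeast genes (18.7 to 19.6), and tested genes were above it on 2 or more arrays.

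Comparisons used limma 3.58.1 in R 4.3.3, with 1 mean per group over all 12 arrays, variances with a trend in signal, two-sided tests and Benjamini-Hochberg adjustment over 5352 genes at 0.05. Most of the arrays behind the shared spread are the 8 homozygotes, so SEs can understate the distance between the parental arrays. Fold changes are ratios of geometric means, and 95% intervals are limma's. Precision is limited by how few arrays there are. The code was tested on simulated data.

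All 10 genes were named. From other lists up to 4 called genes could be named, and any regulator, permease or carrier. The members and lists were chosen with earlier results of these data known. Promoter motifs, planned as a description, were not analysed here.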

Additional observations from a re-analysis of the deposited data

Results flagged for a closer look

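In the test for 1 array far from the others, run for each of the 10 genes over the 8 homozygotes, 2 values stood out. ILV5 was at 5058 in homozygote 4, with a gap to its neighbour of 0.614 of the whole range, where 0.526 is the critical value. ILV6 was at 2228 in homozygote 8, with a gap of 0.585 of the range. Chance flags about 1 in 20 groups. The ILV5 range itself is narrow, 1.10-fold over the 8 strains.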

How the results depend on the processing

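Under 25 alternatives, 658 log2 changes of the 10 genes kept their direction and their side of the threshold, 60 lost and 13 gained a call, and 19 changed sign. No label says that the replicate numbers pair the arrays. The deviations of parental array 1 and evolved array 1 from their group means had a correlation of -0.05 over genes. This single pair cannot decide whether the numbers pair the arrays. With the number as a replicate block, 0 of the 10 genes were called in homozygotes or in the evolved strain (64 and 107 of all 5352 genes). LEU1 was then at an adjusted p = 0.0899 in homozygotes. LEU3 (adjusted p = 0.0796) and OAC1 (adjusted p = 0.0704) also missed the threshold there, as did GCN4, STP2, MPC2, BAP2, TAT1 and GNP1. Numbers 3 to 8 occur only among homozygotes, so of these strains only homozygotes 1 and 2 informed that fit. With array weights per group the calls were 2 in homozygotes against parental arrays (325 of all genes), 0 in evolved against parental arrays (184 of all genes) and 5 in homozygotes against evolved arrays (1549 of all genes). Fitting only the groups compared, or averaging the evolved arrays as 1 (a choice made after seeing the data), gave 0 calls in evolved against parental arrays (46 and 133 of all genes). Leaving out 1 array at a time gave 5 to 8 calls for homozygotes against parental arrays (1394 to 1677 of all genes), 0 to 8 for evolved against parental arrays (118 to 863 of all genes), and 0 to 7 for spread among homozygotes. The 7 came without either parental array, when the evolved duplicates alone set the yardstick and 3422 or 3406 of all 5352 genes passed too.

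Leave-one-out ranges of the log2 changes that crossed 0 were as follows. In homozygotes against parental arrays LEU4 ran from -0.075 to 0.34, ILV1 from -0.14 to 0.31, ILV2 from -0.13 to 0.22 and ILV6 from -0.27 to 0.19. In evolved against parental arrays LEU4 ran from -0.028 to 0.39 and ILV6 from -0.28 to 0.18. In homozygotes against evolved arrays LEU4 ran from -0.099 to 0.0055, ILV6 from -0.0048 to 0.036 and BAT1 from -0.060 to 0.037. BAT1 was also at 0.011 there after median centring, and ILV6 at -0.011 after quantile normalization and -0.0062 without both homozygotes 5 and 6. ILV6 was at 0.015 in homozygotes against parental arrays with the replicate block. The sign changes were all in log2 changes not called by the reported fit, and their cause was not tested.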
